A study of Arabidopsis thaliana with 4 samples.

Results

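The genes described here are 10 components of the Arabidopsis iron deficiency response: the peptide genes IMA1 (AT1G47400), IMA2 (AT1G47395) and IMA3 (AT2G30766), the transcription factor genes bHLH39 (AT3G56980), bHLH100 (AT2G41240) and PYE (AT3G47640), the ubiquitin ligase genes BTS (AT3G18290), BTSL1 (AT1G74770) and BTSL2 (AT1G18910), and the ferric reductase gene FRO3 (AT1G23020). They were taken by gene identifier from tables of 27880 rows, and all 10 had a row of their own. They were selected on their place in the iron deficiency pathway and on their counts in the se-1 and wild-type libraries, IMA2 and FRO3 being strongly raised, so their values in that contrast are given as a description, without a test. The samples were se-1 embryos and wild-type embryos, 2 libraries of each, in the Col background at the stage of 32 to 64 cells. The mutant carries se-1, a partial loss-of-function allele of SERRATE, whose protein takes part in microRNA processing and in mRNA splicing. Plants of both genotypes were grown in soil at 22 °C with 16 h of light after at least 4 days in the dark at 4 °C, and no iron treatment is named in the labels, so iron supply was not a variable of the design. The labels state that the replicates are biological but not from how many plants or embryos each library came.

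Plants sense iron shortage through a chain of basic helix-loop-helix (bHLH) proteins. ILR3 and its relatives of subgroup IVc, together with bHLH121, switch on the genes of the IMA (IRONMAN) peptides and of the subgroup Ib factors, which include bHLH39 and bHLH100 and work with FIT in roots. BTS and its relatives BTSL1 and BTSL2 carry hemerythrin domains that bind iron and tag bHLH proteins for breakdown, and IMA peptides bind these ligases and relieve that brake. The embryo receives its iron from maternal tissue, and later in seed maturation stores it in vacuoles of cells at and around the provasculature for use at germination.

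Between 18580516 and 20882004 reads were counted per library. CPM values below are counts scaled to library size, with TMM-adjusted sizes in place of the raw totals. SERRATE transcript was present at 69.4 and 71.1 CPM in se-1 embryos, against 96.7 and 98.6 CPM in wild-type embryos. All 10 markers of embryo lineages had counts in every library and summed to 1397 to 1468 CPM in se-1 embryos, against 1702 to 1806 CPM in wild-type embryos. The 8 endosperm markers summed to 89.3 to 91.1 CPM in se-1 embryos, against 97.0 to 103 CPM in wild-type embryos, and 7 of the 8 had counts in every library, IKU2 being at 0 in se-1. The 8 seed coat markers all had counts in every library and summed to 199 to 203 CPM in se-1 embryos, against 132 to 145 CPM in wild-type embryos. Their part in the values below was not tested. Over all 18714 rows tested, 13523 or 72.3% passed an edgeR quasi-likelihood test at an adjusted p under 0.05, 36.2% higher and 36% lower in se-1. By the same test 4 of the 10 embryo markers were higher in se-1 and 4 lower. Of 6 tested endosperm markers 2 were higher and 3 lower, and of the 8 seed coat markers 4 were higher and 2 lower. Each marker sum therefore mixes members of both directions. In RNA from whole embryos, fewer cells of a type and less RNA per cell cannot be told apart.

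The coding sequences of the IMA peptides are printed because the members of this family are recognised by a shared C terminus and because IMA1 and IMA2 are close copies. They were read from RefSeq TAIR10.1, 5′ to 3′. Capitals mark the 30 of the last 45 bases, stop codon included, that are the same in all 3 genes.
IMA1 chr1:17385818-17385970 (+ strand): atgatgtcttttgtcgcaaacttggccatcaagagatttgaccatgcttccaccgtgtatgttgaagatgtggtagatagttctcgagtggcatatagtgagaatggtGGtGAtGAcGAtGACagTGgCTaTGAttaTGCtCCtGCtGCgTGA
IMA2 chr1:17383117-17383269 (+ strand): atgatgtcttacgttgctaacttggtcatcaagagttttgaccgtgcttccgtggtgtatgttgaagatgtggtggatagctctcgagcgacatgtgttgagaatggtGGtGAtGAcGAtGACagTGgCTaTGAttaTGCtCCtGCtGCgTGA
IMA3 chr2:13108068-13108211 (+ strand): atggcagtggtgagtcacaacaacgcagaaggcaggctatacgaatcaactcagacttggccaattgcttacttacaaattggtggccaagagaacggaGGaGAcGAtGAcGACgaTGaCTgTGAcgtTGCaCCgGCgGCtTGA

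IMA1 and IMA2 code for 50 amino acids each and IMA3 for 47, each from a single coding exon. IMA1 and IMA2 were identical at 136 of 153 aligned coding bases (88.9%), whereas IMA3 shared 51.9% with IMA1 and 50.6% with IMA2. IMA2 (chr1:17382998-17383830) and IMA1 (chr1:17385707-17386485) lie in tandem on the + strand of chromosome 1, 1876 bases apart. The longest run shared by their transcripts was 59 nt. Read length and the rule for reads with several alignments were not stated in the labels or headers, so a share of the IMA1 and IMA2 counts may have been exchanged or dropped.

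The regions around the transcript starts, from 250 bases before to 50 bases after the RefSeq start, were searched for the E-box CANNTG and for its special form, the G-box CACGTG, both of which read the same on the opposite strand and are the letters bHLH proteins bind. Shown are the tandem IMA1 and IMA2 windows and the windows of the 3 genes with a G-box, bHLH100, BTS and FRO3. Capitals mark every CANNTG match.
IMA1 chr1:17385457-17385756 (+ strand): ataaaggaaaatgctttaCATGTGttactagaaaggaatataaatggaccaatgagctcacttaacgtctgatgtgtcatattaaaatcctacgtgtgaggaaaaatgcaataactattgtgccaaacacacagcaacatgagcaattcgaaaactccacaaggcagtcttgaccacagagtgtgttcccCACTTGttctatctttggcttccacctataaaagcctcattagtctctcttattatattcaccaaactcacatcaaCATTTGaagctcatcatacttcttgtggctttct
IMA2 chr1:17382748-17383047 (+ strand): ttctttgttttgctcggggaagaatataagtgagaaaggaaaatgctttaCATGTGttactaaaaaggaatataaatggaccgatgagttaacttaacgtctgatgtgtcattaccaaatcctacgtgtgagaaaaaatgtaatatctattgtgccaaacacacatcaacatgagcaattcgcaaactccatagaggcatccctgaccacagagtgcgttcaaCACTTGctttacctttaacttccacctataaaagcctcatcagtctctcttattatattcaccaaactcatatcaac
bHLH100 chr2:17199405-17199704 (- strand): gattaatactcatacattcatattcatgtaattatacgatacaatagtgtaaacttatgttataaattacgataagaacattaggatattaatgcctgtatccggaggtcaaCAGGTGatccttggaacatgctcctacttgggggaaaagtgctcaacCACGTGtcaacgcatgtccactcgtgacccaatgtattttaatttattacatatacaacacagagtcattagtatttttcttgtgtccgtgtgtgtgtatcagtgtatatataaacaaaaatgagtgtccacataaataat
BTS chr3:6273716-6274015 (+ strand): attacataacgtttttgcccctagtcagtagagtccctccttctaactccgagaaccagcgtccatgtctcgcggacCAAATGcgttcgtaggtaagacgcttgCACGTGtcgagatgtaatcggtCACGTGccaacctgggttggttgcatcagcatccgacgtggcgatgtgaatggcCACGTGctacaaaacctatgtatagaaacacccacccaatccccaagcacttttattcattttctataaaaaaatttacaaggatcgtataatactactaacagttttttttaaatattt
FRO3 chr1:8153747-8154046 (- strand): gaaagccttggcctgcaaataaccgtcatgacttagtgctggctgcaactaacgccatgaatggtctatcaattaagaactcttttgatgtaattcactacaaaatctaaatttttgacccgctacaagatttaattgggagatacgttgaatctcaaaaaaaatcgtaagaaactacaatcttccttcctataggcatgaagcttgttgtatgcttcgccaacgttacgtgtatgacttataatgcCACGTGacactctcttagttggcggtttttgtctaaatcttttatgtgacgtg

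A G-box was present in 3 of the 10 windows, against 7.68% of the 27350 windows of protein-coding genes, and an E-box in 9 of the 10, against 61.7%. BTS held 3 G-boxes, beginning at positions -146, -124 and -70 relative to the start. The G-box of bHLH100 began at -91, and that of FRO3 at -3, across the start. PYE had neither motif. The IMA1 and IMA2 windows aligned with 71.8% identity and held the same CATGTG and CACTTG E-boxes at shifted places, whereas other pairs of related members were between 42.2% and 53.1% identical. Such a match is a string of letters and no measured binding.

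**Figure D1:**
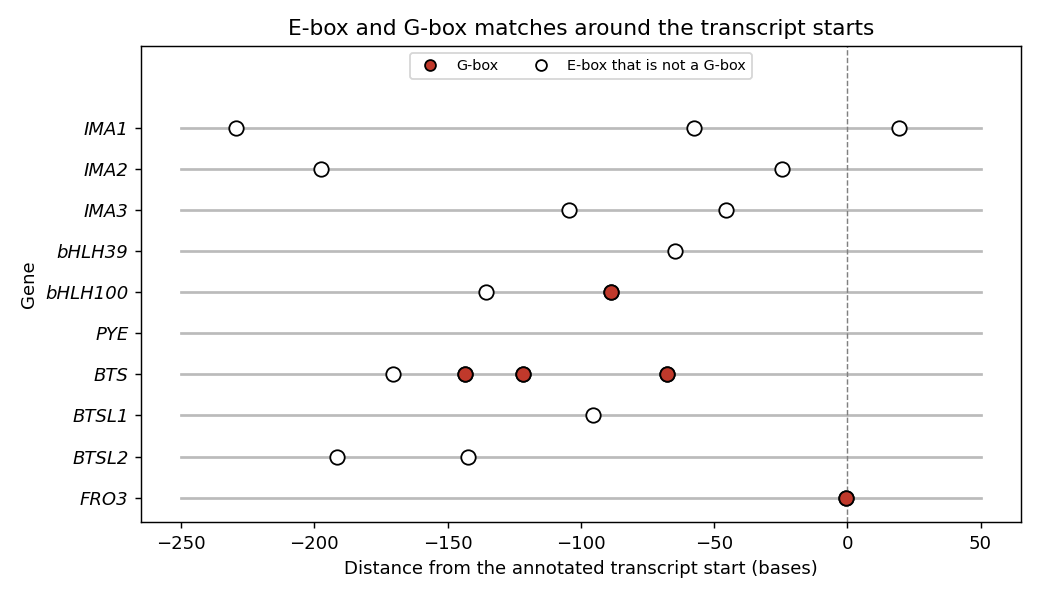
Positions of E-box and G-box matches in the 10 windows, each drawn as a grey line from 250 bases before to 50 bases after the annotated transcript start (x axis, bases; dashed line, start). BTS has 3 G-boxes, bHLH100 and FRO3 have 1 each, and PYE has no match.

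The peptide genes were close to absent from wild-type embryos and present in se-1 embryos. IMA2 had 1020 and 1338 counts in the se-1 libraries, against 2 and 2 in the wild-type libraries. These are 54.6 and 64.1 CPM in se-1 embryos, against 0.105 and 0.105 CPM in wild-type embryos. The ratio of counts was 568 with an exact 95% interval of 221.5 to 2086, which covers counting error only.

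IMA1 had 98 and 103 counts in the se-1 libraries, against none in either wild-type library. Its level was 5.25 and 4.94 CPM in se-1 embryos, whereas a count of 0 allows up to 0.0787 CPM over both wild-type libraries. With 3 counts allowed over the wild-type group, IMA1 was at least 64.6-fold higher in se-1.

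IMA3 was much scarcer, with 11 and 14 counts in the se-1 libraries, against 0 in each wild-type library, and was at least 8.03-fold higher on the same floor. It overlaps AT2G30760 and CYP71A13 (AT2G30770) on the opposite strand. AT2G30760 had 4 and 5 counts in se-1, against 1 and 0 in wild type, and CYP71A13 had 0 in all 4 libraries. Whether strand was used in counting was not stated in the labels or headers, so reads of such antisense neighbours cannot be told apart.

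For all 3 peptide genes each se-1 library was above each wild-type library. IMA2 made up 90.3% and 92% of the counts of the family in the se-1 libraries, IMA1 8.68% and 7.08%, and IMA3 0.974% and 0.962%. Their summed level was 60.4 and 69.7 CPM in se-1 embryos, against 0.105 and 0.105 CPM in wild-type embryos.

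The subgroup Ib genes among the 10 also had few or no wild-type reads and more in se-1. bHLH39 (chr3:21086390-21087710, - strand), the partner of FIT in switching on root iron uptake, had 80 and 111 counts in the se-1 libraries, against 0 and 1 in the wild-type libraries. These are 4.28 and 5.32 CPM in se-1 embryos, against 0 and 0.0523 CPM in wild-type embryos. The ratio of counts was 184, with an exact 95% interval of 32.6 to 7306 that reflects the single wild-type read.

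bHLH100 (chr2:17198037-17199454, - strand), a paralog of bHLH39 with 69.1% identical coding bases, had 164 and 163 counts in the se-1 libraries, against 4 and 4 in the wild-type libraries. These are 8.78 and 7.81 CPM in se-1 embryos, against 0.211 and 0.209 CPM in wild-type embryos. The log2 fold change was 5.26 (SE 0.28), and the ratio of counts was 39.4 (exact 95% interval 19.8 to 92.0). In both genes the genotypes did not overlap.

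PYE (chr3:17567126-17569394, + strand), a bHLH repressor that restrains NAS4, ZIF1 and FRO3 in roots, did not share this pattern. It stood at 1.71 and 2.30 CPM in se-1 embryos, against 1.37 and 1.78 CPM in wild-type embryos. The lower se-1 library lay below the higher wild-type library, and the log2 fold change of 0.36 had an SE of 0.26. With 80 counts in se-1 and 60 in wild type the ratio was 1.28 (exact 95% interval 0.908 to 1.83, counting error only).

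The ligase genes went in different directions. BTS (chr3:6273966-6280562, + strand), which is essential for embryo development, was the most abundant member in wild-type embryos. It stood at 37.5 and 36.8 CPM in se-1 embryos, against 57.2 and 53.7 CPM in wild-type embryos, and was 1.49-fold lower (log2 fold change -0.58, SE 0.084), but its log2 fold change was 0.15 after a correction for transcript length described below. BTSL2 (chr1:6532559-6538145, - strand) stood at 5.19 and 6.04 CPM in se-1 embryos, against 10.8 and 9.68 CPM in wild-type embryos, and was 1.82-fold lower (log2 fold change -0.86, SE 0.14), and its log2 fold change was -0.21 after the same correction. Both se-1 libraries lay below both wild-type libraries for these genes.

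BTSL1 (chr1:28089172-28094956, - strand), the closest relative of BTSL2 with 75.7% identical coding bases, lay on the other side. It had 14 and 18 counts in the se-1 libraries, against 2 and 3 in the wild-type libraries, a ratio of 6.17 (exact 95% interval 2.38 to 20.3). BTS held 86.3% and 84.2% of the counts of the 3 ligase genes in se-1 libraries, against 84% and 84.5% in wild-type libraries. BTSL1 held 1.72% and 1.97% in se-1 libraries, against 0.155% and 0.247% in wild-type libraries, so the balance between the paralogs shifted while BTS kept most of the reads. BTSL1 and BTSL2 overlap other genes on the opposite strand. The neighbour of BTSL2, AT1G18900 (3581 nt), had a log2 fold change of -0.62 and that of BTSL1, AT1G74750 (3786 nt), of -0.43. The median over all 1535 rows of 3001 to 4000 nt was -0.56. The part of reads from these neighbours was not tested.

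FRO3 (chr1:8149868-8153796, - strand), which reduces ferric iron at mitochondria, had 897 and 988 counts in the se-1 libraries, against 7 and 10 in the wild-type libraries. These are 48.0 and 47.3 CPM in se-1 embryos, against 0.369 and 0.523 CPM in wild-type embryos. The ratio of counts was 107 (exact 95% interval 66.5 to 184), and the log2 fold change was 6.72 (SE 0.17). The gene overlaps LPR1 (AT1G23010) on the opposite strand, which had 794 and 913 counts in se-1, against 496 and 488 in wild type. In the wild-type libraries, LPR1 reads can have added at most the 17 reads counted at FRO3. This limit does not carry over to the se-1 libraries, where the part of LPR1 reads was not tested.

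**Figure D2:**
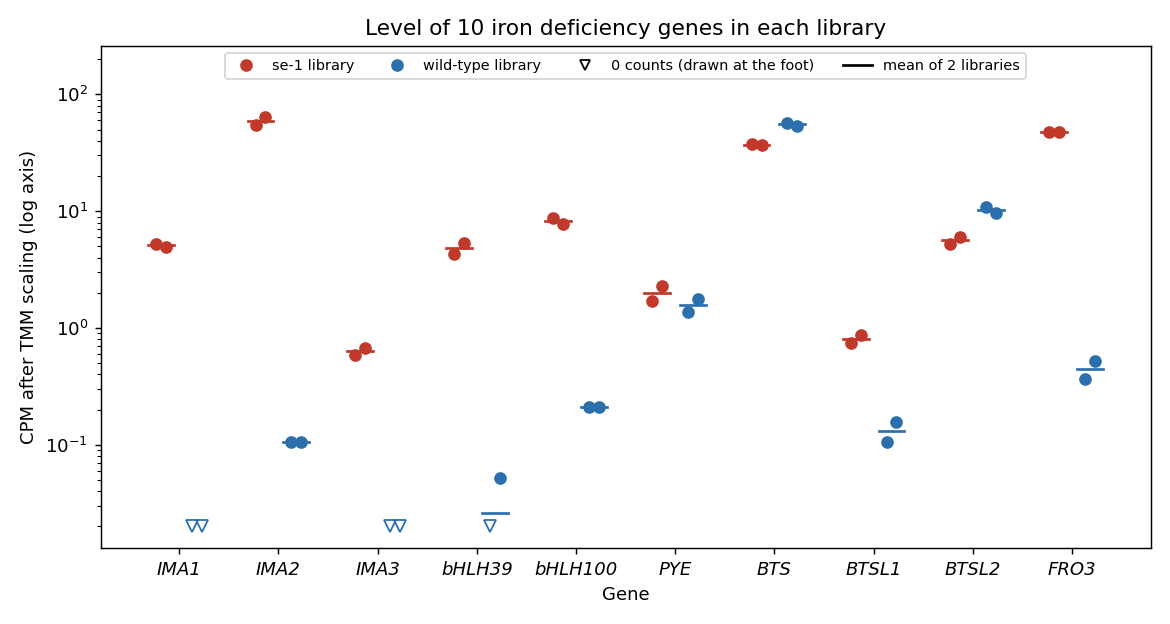
CPM after TMM scaling (log axis) of the 10 genes in each library, with se-1 libraries in red left of wild-type libraries in blue, bars for the mean of 2 libraries and open triangles for 0 counts. IMA2 and FRO3 lie near 50 CPM in se-1 embryos and below 1 CPM in wild-type embryos, PYE overlaps between genotypes, and BTS and BTSL2 are lower in se-1 embryos.

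Thus 7 of the 10 genes were higher in both se-1 libraries than in both wild-type libraries, 2 were lower and 1 overlapped. Of the 2 lower genes, BTS changed direction with the length correction. Over all rows tested, 42.7% were higher and 42.8% lower without overlap. All 10 passed the filter on low counts, but IMA1, IMA2, IMA3, bHLH39, bHLH100 and BTSL1 had fewer than 10 wild-type counts in sum and could pass it only through their level in se-1. The same holds for FRO3, with 7 and 10 wild-type counts. The filter asks for the level of 10 counts in a library of median size, in at least 2 libraries. No summary of the 10 is therefore given as support.

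Per kilobase of annotated exon, IMA2 was the highest member in se-1 embryos, at 71.3 ± 8.08 CPM per kb (SD, n = 2), followed by FRO3 at 17.1 ± 0.171, BTS at 8.27 ± 0.114, bHLH100 at 7.17 ± 0.592 and IMA1 at 6.53 ± 0.282 CPM per kb. bHLH100 and IMA1 were separated by less than the sum of their SDs. Below them came bHLH39 at 3.95 ± 0.603 CPM per kb, then PYE at 1.45 ± 0.300 and BTSL2 at 1.38 ± 0.147 CPM per kb, which overlapped. IMA3 at 0.316 ± 0.0291 and BTSL1 at 0.179 ± 0.0178 CPM per kb were the lowest in se-1 embryos. Such an order depends on the division by length, as BTS and bHLH100 undivided stood at 37.2 and 8.29 CPM in se-1 embryos. Whether reads scale with exon length after amplification from the poly(A) tail was not tested.

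The order in wild-type embryos was a different one. BTS led at 12.3 ± 0.549 CPM per kb, before BTSL2 at 2.52 ± 0.195 and PYE at 1.14 ± 0.209 CPM per kb, and each of these 3 was apart from the next. bHLH100, FRO3 and IMA2 stood at 0.181, 0.160 and 0.126 CPM per kb, with bHLH100 and FRO3 overlapping and FRO3 and IMA2 differing by less than the sum of their SDs. BTSL1 and bHLH39, at 0.0291 and 0.0215 CPM per kb, overlapped, and IMA1 and IMA3 were at 0. Wild-type globular embryos thus held transcripts of BTS, BTSL2 and PYE, with few or no reads of the peptide genes, the subgroup Ib genes, BTSL1 and FRO3. In se-1 embryos IMA2 and FRO3 stood above BTS.

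Transcript length moved with genotype across the whole data set. The median log2 fold change was -0.80 over the 528 rows of 4001 to 5000 nt, and 0.67 over the 1443 rows of 751 to 1000 nt. BTS is 4495 nt, BTSL1 4501 nt and BTSL2 4064 nt long, whereas IMA1 is 779 nt and IMA2 833 nt. When this trend was removed, BTS had a log2 fold change of 0.15 (SE 0.084) and BTSL2 of -0.21 (SE 0.14). The direction of BTS was thus reversed by the correction, and that of BTSL2 was kept at a smaller size. BTSL1 came to 3.27 (SE 0.50), IMA2 to 8.34 (SE 0.24), bHLH100 to 4.85 (SE 0.29), FRO3 to 7.02 (SE 0.17) and PYE to 0.15 (SE 0.26).

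**Figure D3:**
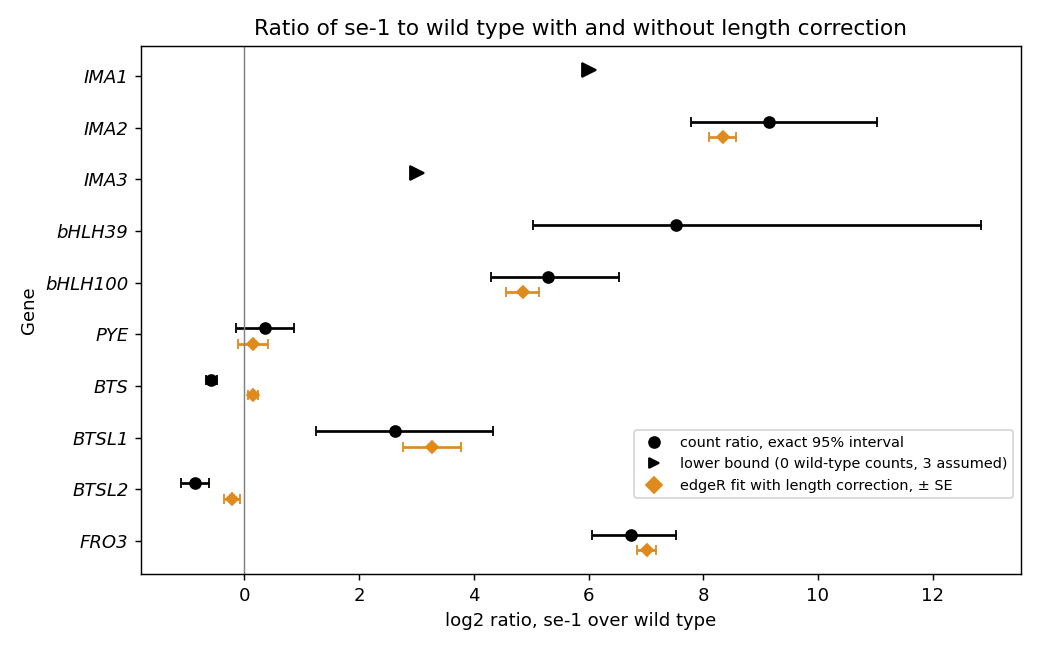
Ratio of se-1 to wild type on a log2 scale (x axis) for each gene. Black circles are count ratios with exact 95% intervals, black triangles lower bounds for genes with 0 wild-type counts, and orange diamonds the length-corrected edgeR fit ± SE for genes with at least 4 wild-type counts. BTS lies at -0.58 without and 0.15 with the correction, and FRO3 has a count ratio of 107 and a corrected log2 fold change of 7.02.

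Other genes of iron homeostasis changed in both directions. Of 68 genes in 6 lists, 51 had enough counts to be tested, 23 were higher in se-1, 18 were lower and 10 did not pass (edgeR quasi-likelihood test, Benjamini-Hochberg adjustment over all rows). These are 45.1% higher and 35.3% lower, against 36.2% and 36% of all rows. The median log2 fold change was 0.12 over the list and 0.00 over all rows. After length correction 25 of the 51 were higher and 16 lower, against 5987 higher and 6447 lower of all 18529 rows tested in that fit.

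Some regulators upstream of the IMA and subgroup Ib genes were among those higher. Of 12 tested regulators 6 were higher, 3 lower and 3 did not pass. These are 50% higher and 25% lower, against 36.2% and 36% of all rows. ILR3, the subgroup IVc factor that activates the Ib and IMA genes, had 2241 and 3142 counts in se-1, against 722 and 826 in wild type (log2 fold change 1.74, SE 0.10, adjusted p = 4.88e-11, edgeR). Its relatives bHLH115 and bHLH104 rose by 1.49 (SE 0.11, adjusted p = 5.24e-10, edgeR) and 1.37 (SE 0.11, adjusted p = 3.93e-09, edgeR) on the log2 scale. The fourth, bHLH34, named after its value was seen, stood at a log2 fold change of 0.01 (SE 0.21) without passing. ILR3, bHLH115 and bHLH104 remained higher after length correction, at 1.48, 1.24 and 1.35.

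bHLH19, a subgroup IVa factor that promotes the breakdown of FIT, had 1 and 1 counts in se-1, against 18 and 23 in wild type (log2 fold change -4.25, SE 0.59, adjusted p = 3.37e-06, edgeR). FIT, bHLH38, bHLH101, IRT1, IRT2 and FRO2 were chosen for mention after their values were seen. FIT, the root regulator that works with bHLH39, fell as well, with 3 and 12 counts in se-1, against 44 and 44 in wild type (log2 fold change -2.59, SE 0.37, adjusted p = 4.72e-06, edgeR). The remaining subgroup Ib genes had too few counts to be tested. bHLH38, adjacent to bHLH39 on chromosome 3, had 22 and 9 counts in se-1, against 0 in both wild-type libraries, at least 9.96-fold higher. bHLH101 had 4 and 1 counts in se-1, against 0 in both wild-type libraries.

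Root uptake genes were low or changed little. The uptake transporter IRT1 had 2 and 0 counts in se-1, against 0 in both wild-type libraries, and IRT2 had none in any library. FRO2, the root surface reductase, had 34 and 32 counts in se-1, against 37 and 22 in wild type, and did not pass (log2 fold change 0.11, SE 0.28, adjusted p = 0.743, edgeR). Of 7 tested genes 3 were lower (42.9%, against 36% of all rows). They were the scopolin beta-glucosidase gene BGLU42, the coumarin synthase gene COSY and the metal transporter gene NRAMP1, with log2 fold changes of -0.51, -0.36 and -0.41. F6'H1, an enzyme of coumarin synthesis, was the gene that rose (log2 fold change 0.97, SE 0.36, adjusted p = 0.0209, edgeR), and it did not pass without se-1 replicate 2 (adjusted p = 0.147, edgeR) or without wild-type replicate 2 (adjusted p = 0.156, edgeR), nor with DESeq2 (adjusted p = 0.175). After length correction 3 of the 7 were higher and 3 lower, against 5987 higher and 6447 lower of all 18529 rows tested in that fit.

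Transport genes changed in both directions. Of 19 tested transport genes 10 were higher, 6 lower and 3 did not pass. These are 52.6% higher and 31.6% lower, against 36.2% and 36% of all rows. YSL3, a transporter of metals bound to nicotianamine, had 193 and 244 counts in se-1, against 2 and 9 in wild type (log2 fold change 5.23, SE 0.28, adjusted p = 1.08e-11, edgeR). Its log2 fold change was 4.53 without wild-type replicate 1 and 6.62 without wild-type replicate 2, and it passed in both cases. OPT3, a phloem transporter needed for iron signalling and embryo development, had 28255 and 36308 counts in se-1, against 9484 and 10039 in wild type (log2 fold change 1.67, SE 0.095, adjusted p = 2.36e-11, edgeR). MIT2, a mitochondrial iron importer, rose by 1.34 on the log2 scale (SE 0.082, adjusted p = 6.27e-11, edgeR). VTL5, of the vacuolar iron transporter-like family, had no count in either se-1 library, against 134 and 117 in wild type, and was at least 86.8-fold lower (adjusted p = 3.94e-11, edgeR).

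Ferritins, the iron storage proteins of plastids, were split. Of 4 tested genes 1 was higher and 3 lower. These are 25% higher and 75% lower, against 36.2% and 36% of all rows. FER1 had 3039 and 3850 counts in se-1, against 986 and 1054 in wild type (log2 fold change 1.70, SE 0.088, adjusted p = 6.49e-12, edgeR). FER2, the seed ferritin, fell by 0.74 on the log2 scale (SE 0.091, adjusted p = 7.75e-07, edgeR). FER4 had a log2 fold change of -0.34 (adjusted p = 0.00473, edgeR), which did not pass without se-1 replicate 1 (adjusted p = 0.0699, edgeR). FER3 had -0.20 (adjusted p = 0.0322, edgeR), which did not pass without se-1 replicate 1 (adjusted p = 0.135, edgeR), without wild-type replicate 1 (0.0913) or without wild-type replicate 2 (0.149), nor without the filter on low counts (0.0551) or with DESeq2 (0.0518). After length correction FER1 had a log2 fold change of 1.52. FER2, FER4 and FER3 had -1.17, -0.66 and -0.49, and all 4 genes passed in that fit. FER1 is repressed in roots and leaves under iron shortage, in contrast to the IMA and Ib genes. Here FER1 and the IMA and Ib genes were higher in se-1 embryos, and the cause was not tested.

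Besides FRO3 and FRO2, 2 genes of the reductase family were tested, and both were lower in se-1. Of all rows tested, 36.2% were higher and 36% lower, so 2 such calls say little about the family. FRO7, the plastid reductase, had 98 and 115 counts in se-1, against 212 and 195 in wild type (log2 fold change -0.99, SE 0.13, adjusted p = 2.22e-06, edgeR). FRO6 had a log2 fold change of -0.41 (adjusted p = 0.0199, edgeR), and its call was lost without se-1 replicate 1 (adjusted p = 0.0544, edgeR), without se-1 replicate 2 (0.0959), without wild-type replicate 1 (0.0786), with DESeq2 (0.138) and after length correction (0.488). FRO1, FRO4, FRO5 and FRO8 had at most 6 counts in any library and were not tested.

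Of 7 further genes known to respond to iron shortage 5 were higher, 1 lower and 1 did not pass. These are 71.4% higher and 14.3% lower, against 36.2% and 36% of all rows. AT5G05250 had 3654 and 3361 counts in se-1, against 271 and 335 in wild type (log2 fold change 3.49, SE 0.12, adjusted p = 1.4e-14, edgeR). AT2G14247, coding for a small protein, had 100 and 134 counts in se-1, against 2 and 3 in wild type (log2 fold change 5.42, SE 0.34, adjusted p = 9.93e-11, edgeR). AT1G13609 and CGLD27 rose by 1.57 and 0.79 on the log2 scale, or 0.53 and 0.68 after length correction. All 4 kept their call in the 13 alternatives tried.

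**Figure D4:**
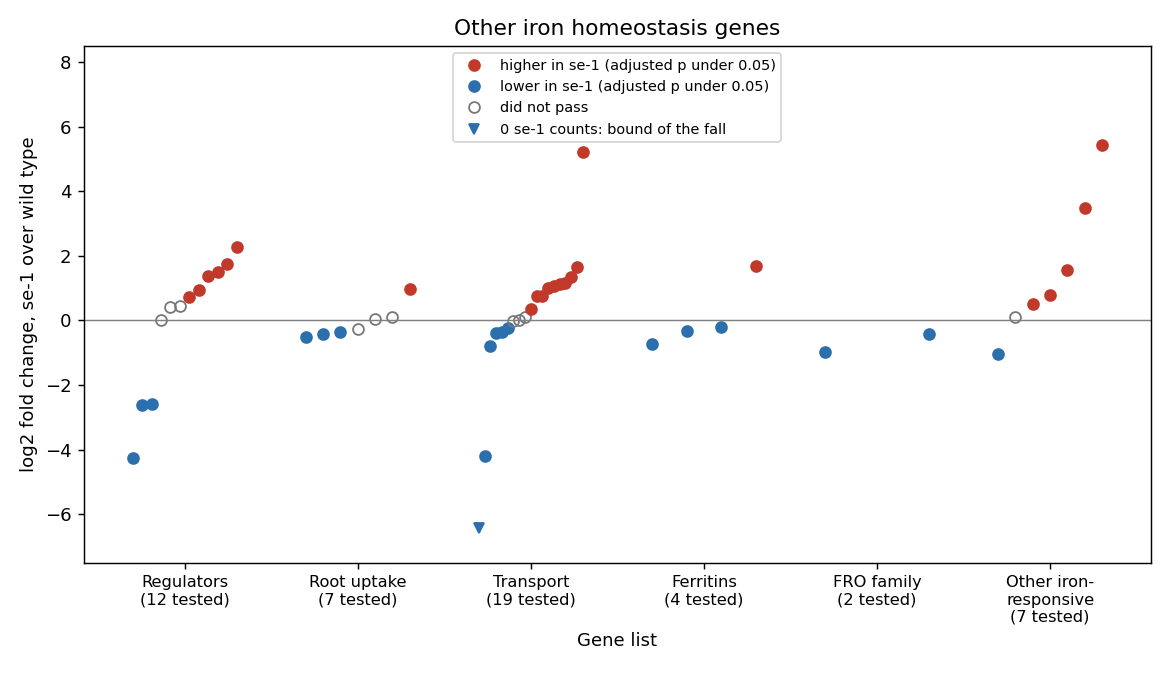
log2 fold change of se-1 over wild type (y axis) for the 51 tested genes of the 6 iron lists (x axis). Red points are higher and blue points lower at an adjusted p under 0.05, open points did not pass, and the triangle is the bound for VTL5, which had 0 se-1 counts. ILR3, YSL3 and FER1 lie above 1, and 3 of the 4 ferritins lie below 0.

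The genes whose profile lay nearest to the median profile of the 10 were sought among 17242 other rows with a mean of at least 1 CPM, by Euclidean distance of centred log2 CPM over the 4 libraries. The nearest was AT5G09570, at a distance of 0.086, with 134 ± 7.78 CPM in se-1 embryos, against 9.58 ± 0.211 CPM in wild-type embryos (SD, n = 2 each). The next were AT2G25210, RPS28 (AT5G64140), RS27A (AT3G61110) and AT3G15450, at distances of 0.143 to 0.170. These 5 had log2 fold changes of 3.65 to 3.80. The median profile lies between bHLH100 and IMA3, both raised in se-1, and is that of none of the 10. Their log2 fold changes were 4.74 and 2.83 with a prior count of 2. The log2 CPM used in the search has the same prior count, on which the size of the profile depends. A search of this kind itself fixes the size of change of the nearest rows. As the 10 were chosen with this contrast in view, it is a description and no support.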

How the data were processed

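Gene expression was measured by RNA-seq in 2 libraries of se-1 embryos and 2 of wild-type embryos, after linear amplification of the RNA from its poly(A) tail, per the labels' protocols. The authors deposited raw counts per gene for each library. The submitters' processing notes name the TAIR10 build, featureCounts, Cufflinks 2.2.1, HISAT2 2.0.5 and FastQC 0.11.5, with no order. The sources used here give no annotation release, strand setting or multi-mapping rule. Fits used R 4.3.3 with edgeR 4.0.16 after TMM scaling and a filterByExpr filter by genotype, with the quasi-likelihood F-test without covariates, two-sided, Benjamini-Hochberg adjustment over 18714 rows at 0.05, checked on simulated counts. The SE of a log2 fold change is its size over the square root of F. Limma 3.58.1 and DESeq2 1.42.0 served as alternatives. The length correction put a natural spline of 5 degrees of freedom on log10 exon length as an offset per library. Count ratios use effective library sizes and exact binomial intervals, which cover counting error only, as the reads carry no molecular identifiers. Floors take 3 counts over a group. CPM per kb divides by the union of exons.

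The chi-square of the 2 replicates' counts, per degree of freedom, was 5.87 in se-1 and 4.10 in wild type, above the value of 1 that sampling noise gives. Coordinates and sequences come from RefSeq TAIR10.1, where all 10 genes matched; the tables hold no coordinates, and the annotation counted may differ from it. The 10 genes, the gene lists and the tests were chosen with earlier results of these data known. The genes named are the 10, up to 4 tested genes of each iron list with the smallest adjusted p and the 5 rows nearest in profile; others are marked as chosen after their values were seen.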

Additional observations from a re-analysis of the deposited data

How the results depend on the processing

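The 3 counts over many genes were recomputed under 13 alternatives. Changed rows numbered 11443 with DESeq2, 12941 with a minimum of 1 CPM in 2 libraries, 12434 with length correction, 12641 with length correction together with the replicate block, and between 13381 and 13683 with the other fits on all libraries, against 13523. Leaving out 1 library gave 12407 to 12530 changed rows, 23 iron genes higher in each case and 14 to 17 lower, against 23 and 18 with all 4. With the replicate number as a block 13683 rows changed, with 23 iron genes higher and 18 lower. The labels link libraries of the same number by nothing but that number. The correlation of their deviations was 0.0263, which cannot show whether they were prepared together. The block on its own changed no call of the listed iron genes named here by rule.

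Among the 10 genes, BTS had a log2 fold change of 0.15 with length correction, and of 0.15 with length correction together with the replicate block, against -0.58 without it. The construction of that correction, which raises genes of this length, gives the shift. IMA1, IMA2, IMA3, bHLH39, bHLH100, BTSL1 and FRO3 were higher in se-1 in every alternative that held them, and PYE ranged from 0.13 to 0.55. Of the 10 genes' log2 fold changes under these settings, 106 stayed within the spread between replicates and 28 moved beyond it with their direction kept. bHLH39, with a single wild-type read, came to 6.36 without wild-type replicate 1 and to 9.56 without wild-type replicate 2. The minimum of 1 CPM left 8 of the 10, without IMA3 and BTSL1. Fitted values of genes without wild-type counts depend on the prior count. IMA1 came to 5.65 with a prior count of 2 and to 9.63 with the smaller edgeR default. Depth limits the wild-type levels of IMA1, IMA3 and bHLH39, where at most 1 read was counted.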

Other observations

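The nearest counted gene on either side of each of the 10 was read after the values above were seen. These are 18 genes outside the 10, of which 11 had enough counts to be tested, and 6 were higher in se-1, 4 lower and 1 did not pass (edgeR). Of all rows tested, 36.2% were higher and 36% lower, so calls in either direction were common. Their log2 fold changes ran from -1.48 to 2.67, with a median of 0.25. Both tested neighbours of BTSL1 and both of BTSL2 were lower. The neighbours' values were not corrected for transcript length. The neighbour that rose most was AT2G41231 beside bHLH100, with 19 and 22 counts in se-1, against 3 and 3 in wild type (log2 fold change 2.67, SE 0.46, adjusted p = 4.66e-05, edgeR). AT2G41231 is 623 nt long, and the median log2 fold change over the 667 rows of 501 to 750 nt was 1.11. On the other side of bHLH100, AT2G41250 had a log2 fold change of 0.87 (adjusted p = 8.26e-07, edgeR). Around the IMA1 and IMA2 pair, AT1G47390 had a single count in wild-type replicate 1 and MIR5664 had none, so no neighbour of the pair was measurable at this depth. AT1G23030, beside FRO3, did not pass, at a log2 fold change of -0.07 (SE 0.13, adjusted p = 0.646, edgeR).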
